A study of Mus musculus with 14 samples.

Results

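The PGC-1, PPAR and ERR regulators of mitochondrial biogenesis were examined for binding of the myogenic factors MyoD and MyoG in mouse muscle stem cells (MuSCs). The set held 10 genes: the PGC-1 coactivators Ppargc1a (PGC-1α), Ppargc1b (PGC-1β) and Pprc1 (PRC), the fatty acid receptors Ppara, Ppard and Pparg, the estrogen-related receptors Esrra, Esrrb and Esrrg, and Nrf1. A gene was taken as bound in a library when that library's list held a peak to which the authors had given its name, and as not bound otherwise. Of the 10303 peaks in 12 lists, 19 belonged to the set, and 5 of the 10 genes had any listed peak (4384 gene names had one in all). Shares of all protein-coding genes with a peak are given below by state and antibody. Every one of these peaks came from activated MuSCs, 18 of them with MyoD and 1 with MyoG.

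MuSCs were obtained from wild-type mice in which a floxed allele of mito-Dendra2, a fluorescent protein sent to mitochondria, was recombined by Pax7-Cre(ERT2), a tamoxifen-dependent recombinase made in cells that express Pax7, so the label marks MuSCs and their progeny. All groups shared this allele and the tamoxifen course of 75 mg/kg daily for 5 days. The tibialis anterior (TA) muscle of one leg was then injured with 50 µL of 1.2% BaCl2, the contralateral TA muscle received saline, and cells were sorted at 2 days post injury (dpi). Quiescent MuSCs (QSCs) were the CD34+ Dendra2+ cells of saline-injected muscle and activated MuSCs (ASCs) were the CD34- Dendra2+ cells of injured muscle, so state, CD34 gate and injury cannot be told apart. Chromatin immunoprecipitation and sequencing (ChIP-seq) gave 3 libraries for each of MyoD and MyoG in each state, hence 4 groups of ChIP libraries, and 2 input libraries were not analysed here. The ages of the mice, and whether a library came from 1 mouse or from pooled mice, are not given in the sources used here.

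PGC-1 proteins do not bind DNA themselves. They are recruited by nuclear receptors and other factors, among them the ERRs, the PPARs and NRF1, and raise transcription of genes for fatty acid oxidation, oxidative phosphorylation and mitochondrial DNA maintenance. In skeletal muscle these factors are best known for setting oxidative capacity. MyoD and MyoG bind DNA at E-boxes, short motifs with the letters CANNTG, and MyoD is known to favour CAGCTG.

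Promoter sequences are shown first for 3 genes, because they set the peaks beside the motif letters. The RefSeq promoter table (GRCm38.p6, the build called mm10) held 16 start sites for 9 of the 10 genes, all but Ppargc1b. The first sequence is the 250 bases before the Ppard start (chr17:28232504-28232753, plus strand), which lies under a MyoD peak of ASCs. The second is the same stretch of Ppargc1a (chr5:51567726-51567975, minus strand), over which no library had a peak. The third is that of Rxrg, the retinoid X receptor γ, a partner of the PPARs (chr1:167598112-167598361, plus strand), which lay under a MyoD peak in each of the 3 ASC libraries. Capitals mark every CANNTG, and all are printed 5′ to 3′ on the strand of the gene.
Ppard: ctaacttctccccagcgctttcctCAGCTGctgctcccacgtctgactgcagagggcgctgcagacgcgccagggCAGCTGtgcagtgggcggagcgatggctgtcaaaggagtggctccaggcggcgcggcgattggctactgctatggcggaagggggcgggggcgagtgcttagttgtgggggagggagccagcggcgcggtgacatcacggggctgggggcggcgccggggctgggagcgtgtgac
Ppargc1a: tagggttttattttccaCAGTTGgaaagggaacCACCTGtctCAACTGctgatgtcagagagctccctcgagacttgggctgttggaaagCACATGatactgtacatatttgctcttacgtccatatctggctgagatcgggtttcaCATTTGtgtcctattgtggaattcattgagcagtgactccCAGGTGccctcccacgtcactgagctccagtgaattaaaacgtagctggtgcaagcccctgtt
Rxrg: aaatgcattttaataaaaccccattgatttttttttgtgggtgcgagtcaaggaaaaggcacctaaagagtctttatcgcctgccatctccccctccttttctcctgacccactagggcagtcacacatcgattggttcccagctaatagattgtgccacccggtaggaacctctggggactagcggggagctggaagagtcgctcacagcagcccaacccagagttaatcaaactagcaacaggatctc

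The 3 windows were chosen for display and do not stand for all promoters under a peak. The Ppard window had 2 E-boxes, both CAGCTG, that began 226 and 175 bases before the start. The Ppargc1a window had 6 E-boxes and no CAGCTG, and the Rxrg window had none. Since CANNTG and CAGCTG read the same on both strands, 1 search covers both, and each CAGCTG is also counted as an E-box. Over the same 250 bases before a start, 66.2% of 32851 windows of all genes held an E-box and 13.0% held CAGCTG. For the set these were 11 of 16 windows and 2 of 16, the windows of 1 gene not being independent. E-boxes outside these windows, among them those inside intronic peaks, were not analysed here.

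Peaks of the set were listed mainly in ASC MyoD libraries. ASC MyoD libraries held 6, 8 and 4 peaks of the 10 genes (mean 6 ± 2, SD, n = 3), which was 0.174% to 0.354% of lists of 2262 to 2652 peaks. ASC MyoG libraries held 1, 0 and 0 peaks, in lists of 605 to 916. The 6 QSC libraries held none, in lists of 120 to 174. The short QSC lists limit this comparison. At the pooled ASC MyoD share (18 of 7210 peaks), the 3 QSC MyoD lists together would hold 1.21 peaks of the set and the 3 QSC MyoG lists 1.12, so a difference in share between ASCs and QSCs was not detectable from lists of this length. For the 3 ASC MyoG lists that number was 5.39, against 1 peak listed. The lists hold no reads, and a library of lower depth or enrichment can give a shorter list. The part of either in these numbers was not tested.

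**Figure D1:**
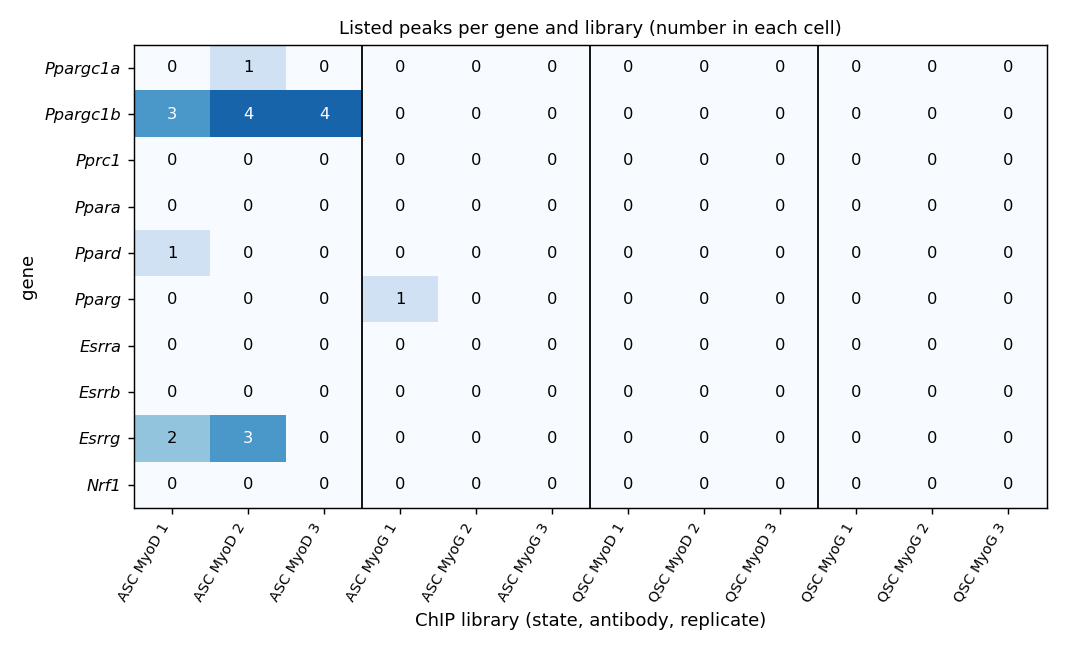
Number of listed peaks for each of the 10 regulator genes (rows) in each of the 12 ChIP libraries (columns, by state, antibody and replicate), printed in each cell, with darker cells for higher numbers. Ppargc1b had 3, 4 and 4 peaks in the ASC MyoD libraries, and the 6 QSC columns hold 0 throughout.

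The members with a peak were then set beside all genes. At least 1 ASC MyoD library had a peak at 4 of the 10 genes (Ppargc1a, Ppargc1b, Ppard and Esrrg), against 10.7% of 21900 protein-coding genes. An ASC MyoG peak was present at 1 of 10 (Pparg), against 3.36% of all genes, and a QSC peak of either antibody at 0 of 10, against 2.2%. With 10 genes, each gene is a large part of these shares, and no test was made of them.

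Regions were then formed by joining the MyoD peaks of the 6 ASC and QSC libraries that overlapped by at least 1 bp. A region was called ASC-specific when it had a peak in at least 2 of the 3 ASC libraries and in no QSC library of the same antibody. By this rule the set had 6 ASC-specific MyoD regions, 4 at Ppargc1b and 2 at Esrrg, so 2 of 10 genes had one, against 5.93% of all protein-coding genes. Gene length moves with this share. Among genes of at least 100 kb, 19.2% had such a region, and 2 of the 6 members of that length did. Among shorter genes, 4.27% had one, and none of the 4 shorter members (Pprc1, Ppara, Ppard and Esrra) did. No member had a MyoG region in at least 2 ASC libraries. The share of all genes with such a region was not computed. Since only 3.36% of all genes had an ASC MyoG peak in any library, this count is not read as particular to the set.

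Among the coactivators, Ppargc1b had all but 1 of the listed peaks. Ppargc1b (ENSMUSG00000033871) had 3, 4 and 4 MyoD peaks in the ASC libraries (mean 3.67 ± 0.577, SD, n = 3) and 0 in each of the other 9 libraries. The 3 ASC MyoD libraries therefore lay above every QSC MyoD and every ASC MyoG library. Non-overlapping peak numbers in this direction were common. They occurred in 31.7% of 3223 genes for ASC MyoD over QSC MyoD, where Ppargc1b was 1 of the 4 members with a MyoD peak, and in 24.4% of 3916 genes for ASC MyoD over ASC MyoG, where it was 1 of the 5 members with an ASC peak. Each difference was 3.67 peaks per library. By exact permutation (two-sided) both had a p-value of 0.1, the smallest possible with 3 libraries in each group. After Benjamini-Hochberg adjustment over all genes tested, these exact tests gave 0.312 against QSCs and 0.384 against MyoG, and neither passed 0.05. No gene could pass at this number of libraries, and 0 of 3223 and 0 of 3916 genes had an unadjusted exact permutation p-value under 0.05. At the Ppargc1b share of the ASC MyoD lists, the 3 QSC MyoD lists together would hold 0.738 of its peaks and the 3 ASC MyoG lists 3.30. These numbers, too, take the lists as alike but for length.

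Ppargc1b spans 109 kb of chromosome 18 (61291445 to 61400756 in RefSeq). Distances along it are given from the higher coordinate, since the peaks that the authors annotated as promoter lie near that end. The region annotated within 1 kb of a start lies 3.67 kb from that coordinate. The start used by the authors is therefore further in, and the kb values here are not distances to it. The highest-scoring region, chr18:61379862-61380915, lay in intron 1 of 11, 20.4 kb into the gene. Its scores, minus 10 times the log10 of the peak caller's p-value, were 180, 168 and 144 in ASC replicates 1, 2 and 3 (mean 164 ± 18.3, SD, n = 3). These peaks ranked 205 of 2652, 186 of 2262 and 247 of 2296 in their lists. The region stood near the top of each list, and its mean score was above that of 90.9% of the 1976 ASC-specific MyoD regions.

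A second region of Ppargc1b present in all 3 ASC libraries was chr18:61346020-61346958, also in intron 1, 54.3 kb into the gene. It scored 135, 86.5 and 97.3 (mean 106 ± 25.4, SD, n = 3), lower than the first region in every library. Next to it, 738 bp away, chr18:61344361-61345281 scored 66.8 and 56.0 in replicates 1 and 2 and had no peak in replicate 3. The gap is wider than the 500 bp over which regions were joined in an alternative, so both stayed separate there. Only 6.28% of all ASC-specific MyoD regions had another within 5000 bp, a distance chosen after the values were seen.

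The remaining binding at Ppargc1b was at its annotated promoters. The region chr18:61396764-61397416, within 1 kb of a start site in the authors' annotation, scored 70.6 in both replicates 2 and 3 and had no peak in replicate 1. It was the single promoter region of the set present in at least 2 ASC MyoD libraries. A peak at chr18:61394561-61395452, which the authors placed 2 to 3 kb from a start, was listed in replicate 3 alone with a score of 53.0, near the lowest score of the lists (50.0, a p-value of 1e-05). The 4 ASC-specific regions thus ranged from the 12.7th to the 90.9th percentile of mean score, and the 2 found in all 3 libraries were the 2 with the highest scores. Of all ASC-specific MyoD regions, 35.2% were intronic, and 34.1% of those were in intron 1, where 3 of the 4 regions of Ppargc1b lay.

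**Figure D2:**
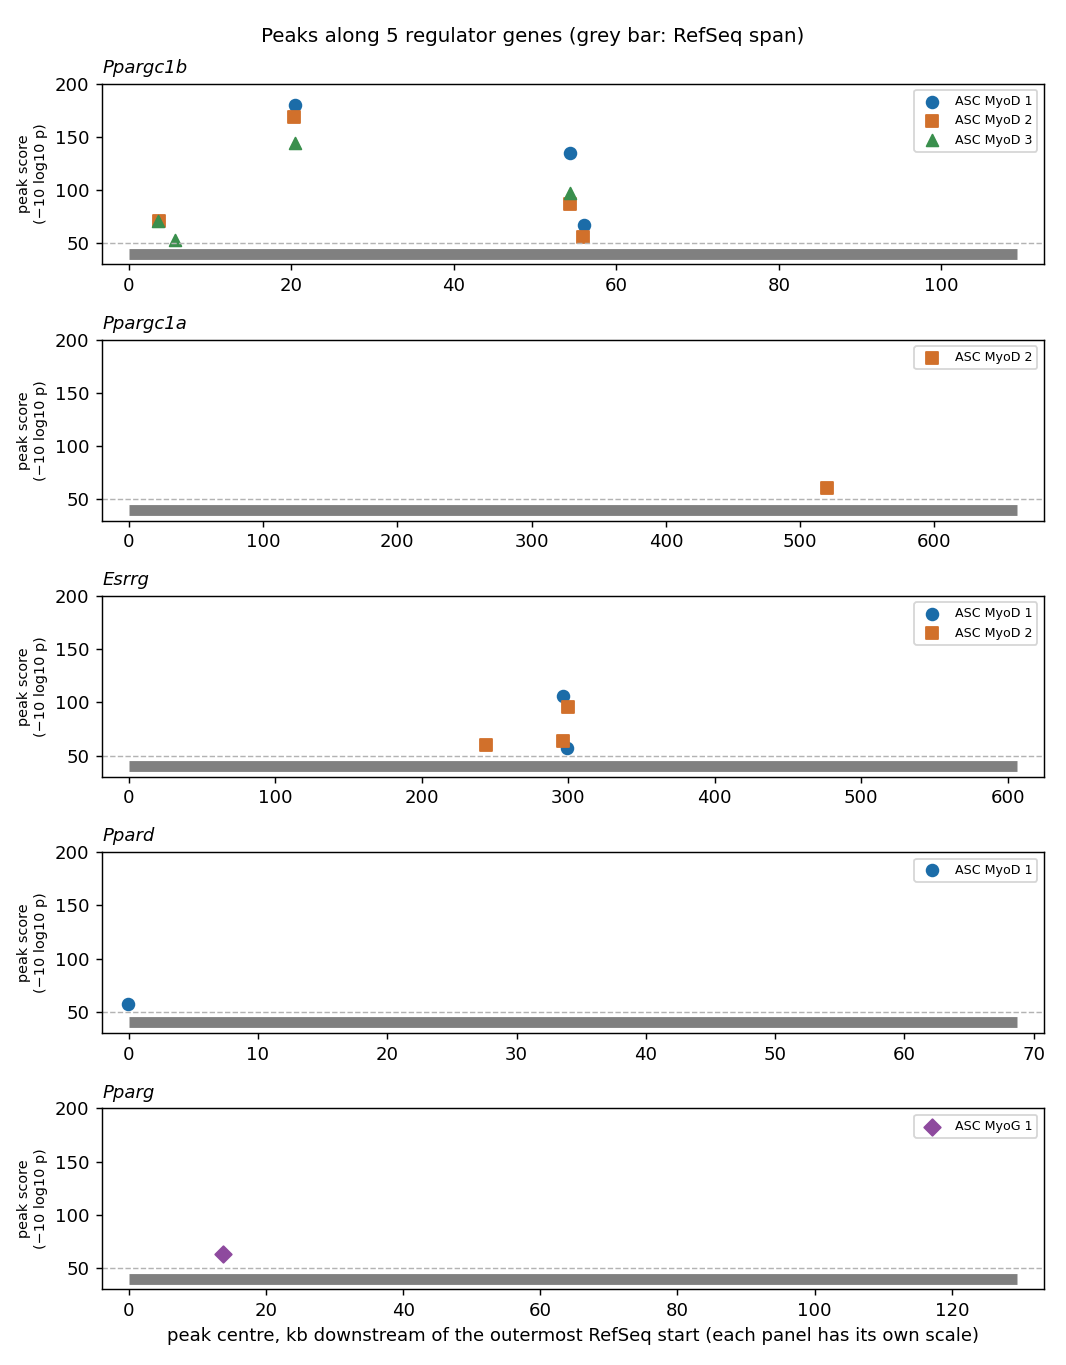
Peaks along the 5 genes that had any, with the distance of the peak centre from the outermost RefSeq start in kb on the x axis (a separate scale for each gene) and the peak score, minus 10 times log10 p, on the y axis. Points are single peaks, coloured by library, the grey bar is the RefSeq span and the dashed line is the lowest listed score. In Ppargc1b the peaks of the 3 ASC MyoD libraries fall together at 20.4 and 54.3 kb, and in Esrrg peaks of replicates 1 and 2 fall together near 296.4 and 299.6 kb.

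Counts of regions were next compared over genes. Of all protein-coding genes, 0.0685% had at least 4 ASC-specific MyoD regions, and Ppargc1b was the single member among them. Counted over all gene names in the lists, 16 genes had 4 or more and 4 had more than 4, the highest number being 13. With 3.66 regions per 100 kb, Ppargc1b was exceeded by 1 of the 467 genes of at least 100 kb that had any region, for which the median was 0.609. This ranking depends on length, since Ppargc1b, at 109 kb, is barely above the cut and its regions are divided by a short length. Genes with any region had a median of 1, and regions annotated as distal intergenic were counted too. By listed peaks, 11 of the 2964 genes with an ASC MyoD peak had more than the 11 of Ppargc1b. The number of regions depended on ASC MyoD replicate 2, without which 2 of the 4 regions were left. Without replicate 1 or replicate 3, 3 were left.

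Ppargc1a (ENSMUSG00000029167), the paralog best known as the inducible regulator of mitochondrial biogenesis in muscle, had 0, 1 and 0 peaks in the ASC MyoD libraries and none elsewhere. Its peak, chr5:51595393-51596291, scored 60.7 in replicate 2, and 31.1% of that list, the peak itself counted, scored at or below it. The peak was annotated as distal intergenic, 28.1 kb upstream of the start whose promoter is printed above. Within an ASC MyoD library, Ppargc1b exceeded Ppargc1a by 3.33 peaks on average, and in all 3 libraries. The exact two-sided sign-flip p-value was 0.25, the smallest possible with 3 libraries.

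The outermost RefSeq span of Ppargc1a, 662 kb, is longer than the gene as the authors annotated it and takes in 3 more peaks, all given to Mir6417. In ASC MyoD replicate 2 these were chr5:51865919-51866545, with a score of 55.8, and chr5:51984711-51985332, with a score of 50.8. In QSC MyoD replicate 3 it was chr5:52052461-52053063, with a score of 52.2, the single QSC peak within the span of any member. When peaks were given to genes by RefSeq span, an alternative added after seeing the data, the mean excess of Ppargc1b over Ppargc1a became 2.67 peaks per library (exact sign-flip p-value 0.25). Pprc1, the third and shortest member of the coactivator family at 16.4 kb, had no peak in any library, and the nearest ASC MyoD peak was 113 to 114 kb away.

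Among the PPARs, which are switched on by fatty acids and pair with RXRs on DNA, each bound gene had a single peak in a single library. Ppard (ENSMUSG00000002250), the form most abundant in skeletal muscle, had chr17:28232297-28233043 in ASC MyoD replicate 1, with a score of 57.1 (19.1% of that list scored at or below it). The peak covers the start and both CAGCTG motifs of the sequence above. Pparg (ENSMUSG00000000440), the regulator of fat cell formation, had the one MyoG peak of the set, chr6:115374388-115374890 in ASC replicate 1, in intron 1 of 7. Its score was 63.3, and 68.8% of that list scored at or below it. Ppara, the regulator of fatty acid oxidation in liver, had none, and its nearest ASC MyoD peak was 121 to 1120 kb away. None of the 3 genes had a peak in a second library, so no PPAR region was replicated and no test was made.

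Among the ERRs, nuclear receptors through which PGC-1 proteins act, Esrrg alone was bound. Esrrg (ENSMUSG00000026610) had 2, 3 and 0 MyoD peaks in the ASC libraries (mean 1.67 ± 1.53, SD, n = 3) and none elsewhere. Because ASC replicate 3 held none, ASC and QSC libraries overlapped. The difference of 1.67 peaks had an exact two-sided permutation p-value of 0.4 (0.743 after adjustment over 3223 genes, with 0.1 the smallest possible). The nearest ASC MyoD peak in replicate 3 was 436 kb from the gene.

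All peaks of Esrrg lay in 1 intron, annotated as intron 3 of 3 of a short transcript (ENSMUST00000127489). The region chr1:187904437-187905310 scored 106 in replicate 1 and 63.8 in replicate 2. At chr1:187907499-187908647, 2188 bp further on, the order was the reverse, with 56.8 in replicate 1 and 95.2 in replicate 2. The third peak, chr1:187852404-187852877, was listed in replicate 2 alone with a score of 59.6. The 2 regions were higher in mean score than 54.0% and 40.6% of the ASC-specific MyoD regions, and they lay 296.4 and 299.6 kb from the outermost start of a gene of 606 kb. With 0.330 regions per 100 kb, Esrrg was below the median of 0.609 for long genes with a region. Both regions rested on replicates 1 and 2. Without either one, Esrrg had no ASC-specific region and Ppargc1b was the single member with any.

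**Figure D3:**
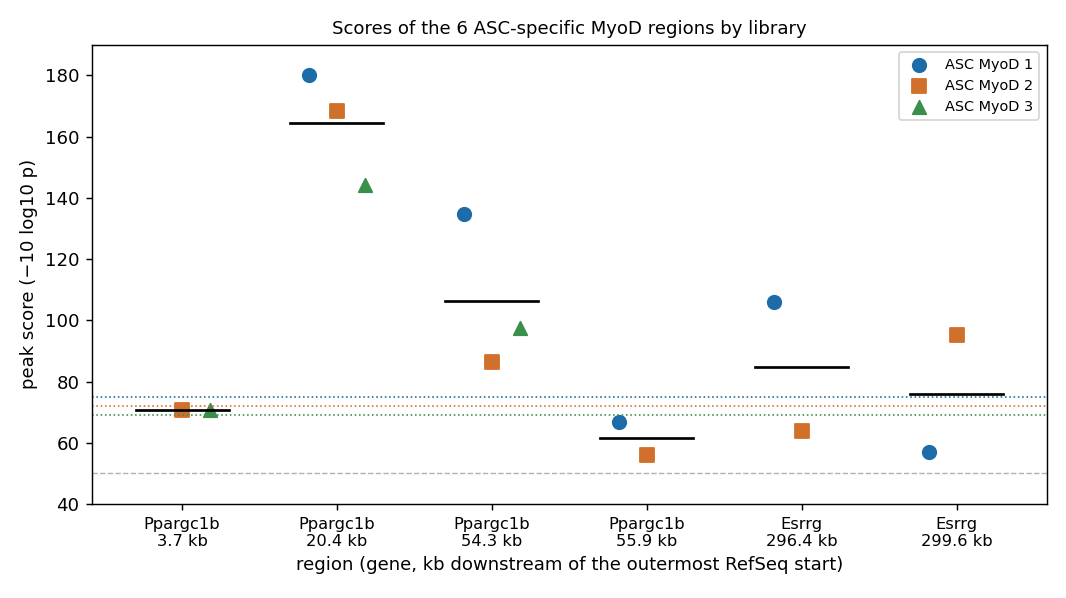
Peak scores, minus 10 times log10 p (y axis), of the 6 ASC-specific MyoD regions of Ppargc1b and Esrrg (x axis, labelled by distance from the outermost RefSeq start) in the 3 ASC MyoD libraries. Points are libraries, black bars their means, coloured dotted lines the median score of each list (75.1, 72.1 and 68.9) and the grey dashed line the lowest listed score. The Ppargc1b regions at 20.4 and 54.3 kb have a point from every library, all above the medians, and the other 4 regions have points from 2 libraries.

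Esrra, the ERR best known as a PGC-1α partner in muscle, had no peak in any library. Its nearest ASC MyoD peak, given to Ppp1r14b, was 53.6 to 53.8 kb away in the 3 libraries. Esrrb, known from pluripotent stem cells, had none within 323 kb. Nrf1, which drives genes of the respiratory chain and of mitochondrial DNA transcription, had none within 106 kb. Numbers that the peak caller gives to its calls rise along each chromosome in these lists, so a gap in them shows a call left out. In the 3 ASC MyoD libraries no number was missing between the peaks that flank Pprc1, Ppara, Pparg, Esrra, Nrf1, Esrrg, Ppargc1a or Ppargc1b. One was missing around Ppard in 1 library and around Esrrb in 2. Around Ppargc1b, 1 number was missing in each ASC MyoG library, between flanking peaks of which the nearer lay 3463 to 6438 kb away, and where that call lay is not known. In single libraries of the other groups numbers were also missing around genes without a listed peak there. These were 1 and 4 numbers around Nrf1 in ASC MyoG replicates 2 and 3, 1 around Pparg in ASC MyoG replicate 2 and in QSC MyoG replicate 1, 2 around Ppargc1a in each of QSC MyoD replicates 1 and 2, and 1 around Ppargc1b in each of QSC MyoG replicates 2 and 3.

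By peak numbers over the 12 libraries, the gene most like Ppargc1b was Tprg, with 3, 4 and 4 peaks in ASC MyoD and none elsewhere, a Euclidean distance of 0. Rhob (3, 5 and 4 peaks) and Arhgap24 (3, 4 and 3 peaks) followed at a distance of 1. Sil1 and Igsf3 were taken from 11 genes at 1.41 because their mean scores were nearest to that of Ppargc1b. These distances are descriptions over 12 libraries, most of which held no peak of any of the 6 genes.

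Of 81 other genes of the mitochondrial regulator network, 9 had an ASC-specific MyoD region, against the 5.93% of all protein-coding genes. That share moves with gene length (19.2% of genes of at least 100 kb, 4.27% of shorter ones), and the network genes were not split by length. None had a region in at least 2 libraries of ASC MyoG or of QSCs. Shares of all genes with such regions were not computed. Only 3.36% of all protein-coding genes had any ASC MyoG peak and 2.2% any QSC peak, so this is not read as particular to the network. Without distal intergenic peaks, 8 network genes had such a region. Tbl1xr1, a subunit of corepressor complexes, had 2 regions, both annotated as distal intergenic, and its peaks numbered 4, 2 and 3 in the ASC MyoD libraries. Nrip1 (RIP140), a further corepressor, had 1 region of low score (mean 56.1). Among coactivators, Ncoa1 (SRC-1) had 1 region in intron 13 that scored 75.6, 104 and 131 (mean 104 ± 27.9, SD, n = 3), and Kat2b (PCAF), an acetyltransferase, had 1 region with a mean score of 59.9.

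Of the RXRs, which pair with the PPARs, Rxrg had 2 ASC-specific regions and Rxra 1, while Rxrb had no listed peak in any library. Ppara, Ppard and Pparg had no such region, and the families were not compared by a test. The Rxrg region at the promoter shown above, chr1:167598052-167598980, scored 52.1, 66.7 and 104 in the 3 ASC MyoD libraries. The other Rxrg region, chr1:167644630-167645419, was annotated as distal intergenic and scored 60.7 and 54.6 in replicates 2 and 3. Nr4a3, an orphan nuclear receptor, had a promoter region with scores of 144 and 71.5 in replicates 1 and 2, and Rb1, the retinoblastoma protein, an intronic region with 121 and 82.7 in the same replicates.

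**Figure D4:**
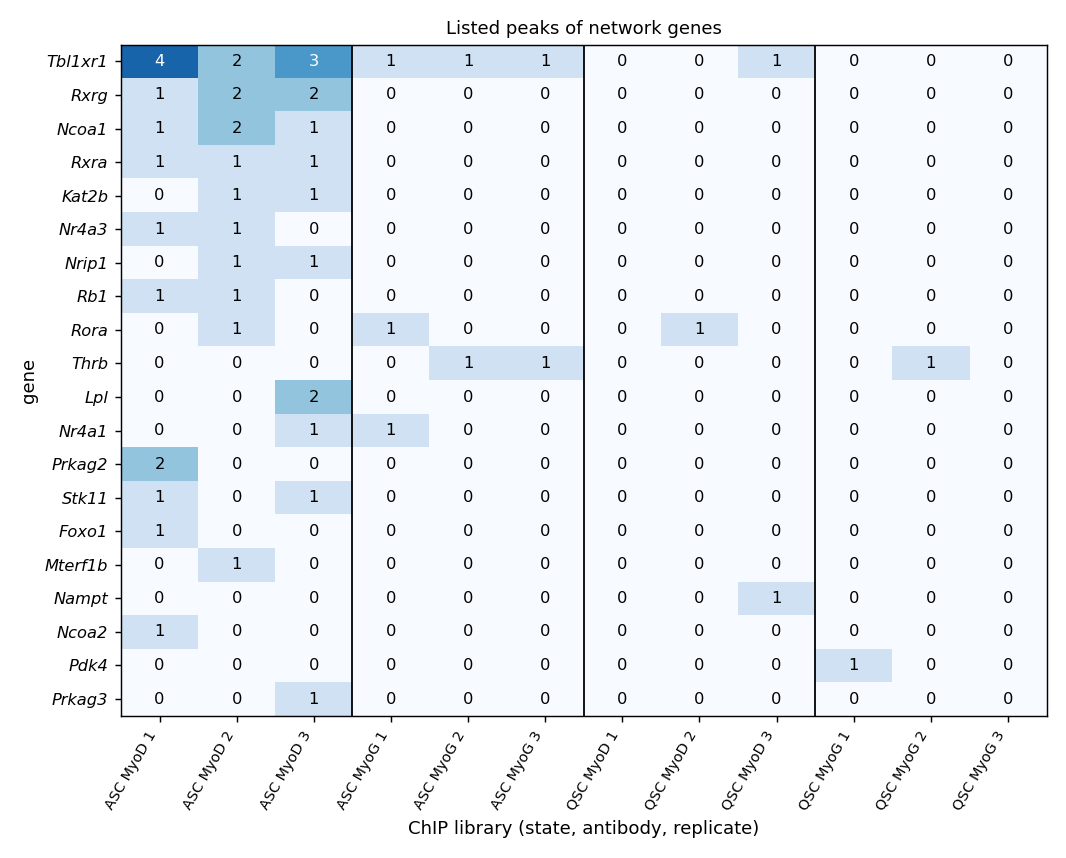
Number of listed peaks for network genes with a peak (rows, from the 81 genes) in each of the 12 ChIP libraries (columns), printed in each cell, with darker cells for higher numbers. Peaks of Rxrg, Ncoa1 and Rxra are in ASC MyoD columns alone, and Tbl1xr1 also has 1 peak in each ASC MyoG library and in QSC MyoD replicate 3.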

How the data were processed

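The deposited files were 12 ChIP-seq peak lists, 1 per library. The authors called peaks with MACS (version not given in the sources used here) in each library and gave each peak a gene and gene part. The submitters' processing notes also name BWA 0.7.5, deepTools 3.5.0 and the build mm10. The deposited score is minus 10 times log10 of the caller's p-value and starts at 50.0. No read counts are held, so depth is unknown, no interval or floor is given, and scores do not measure binding strength. Whether the input libraries, lists of which were not analysed here, served as background is not given in the sources used here.

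Groups and replicate numbers came from the sample titles. All peaks were read with Python 3.11.15 and pandas 2.3.3, and 4 peaks without a gene name stayed out of gene counts. Peaks were joined into regions at an overlap of at least 1 bp, and a consensus region needed a peak in at least 2 of 3 libraries. The code of this step was checked on simulated lists and recovered 100% of 300 planted ASC-specific regions among 530 regions. Planted peaks of a region overlapped by design and regions lay far apart, so this does not measure recovery in the real lists. Gene spans, protein-coding status and promoter sequences came from RefSeq (GRCm38.p6, the same build as mm10). Of 4384 gene symbols in the lists, 3165 matched the table.

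Peak numbers per library were compared by exact permutation, two-sided (3 libraries against 3, 20 relabelings, smallest p-value 0.1) and, within libraries, by an exact sign-flip test (smallest p-value 0.25). Benjamini-Hochberg adjustment ran over all genes with a peak in the libraries compared, not over the members as first planned. The study describes the 3 libraries of a group as biological replicates. How many mice each holds is not given in the sources used here. The alternatives were a score of at least 80, merged peaks, no distal intergenic peaks, other overlap and library rules, promoters within 1 kb, a replicate block, each library left out and, added after seeing the data, genes by RefSeq span. The members, the network list and the tests were chosen with earlier results of these data known. Named genes were all members, the network genes with an ASC-specific MyoD region or any MyoG or QSC consensus region (at most 12, by mean score) and the 5 genes nearest to Ppargc1b in peak numbers. Results for 1 network gene are counted but not reported here by name. The network genes of the closing observations, and Rxrb, were chosen after their values were seen.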

Additional observations from a re-analysis of the deposited data

How the results depend on the processing

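The Ppargc1b, Ppargc1a and Esrrg differences in peak number kept their direction under every alternative run, and no exact p-value could reach 0.05. The Ppargc1b difference ranged from 2 to 4 peaks against QSC MyoD and against ASC MyoG (exact p-values 0.1 to 0.25), its excess over Ppargc1a from 2 to 3.67 (0.1 to 0.5) and the Esrrg difference from 0.667 to 2.5 (0.2 to 0.8). With the replicate number as a block, both Ppargc1b differences had an exact sign-flip p-value of 0.25 and that of Esrrg 0.5, and without the block it was 0.1 for Ppargc1b over Ppargc1a. Deviations of same-numbered libraries correlated between -0.0189 and 0.00772 over 4384 genes, and not every library correlated best with its own number. Most genes had no peak in most lists, so these values cannot show whether same-numbered libraries share mice. That is not known, and the main tests between groups did not pair libraries by number. Counts of regions moved more. At a score of at least 80, Ppargc1b kept 2 regions, the set 2, 1 member had one and 3 network genes did. With a peak required in all 3 libraries these were 2, 2, 1 and 4. With a peak in at least 1 library, the set had 10 regions, 4 members had one, 1 member had an ASC MyoG region and 18 network genes had a MyoD region. Leaving out each library in turn gave 2 to 4 regions for Ppargc1b, 2 to 6 for the set, 1 to 2 members and 5 to 9 network genes. The lower counts come from fewer libraries or peaks entering the rule. Merged peaks, other overlaps, and removal of distal intergenic peaks left every count within 1.5 times, as did genes by RefSeq span for the member counts, the network count not being run there. E-boxes inside regions, planned with whole and central windows, were not run, because no genome sequence was used here. Without reads, absence from a list does not show absence of binding.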

Other observations

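Of the 81 network genes, 4 had an ASC MyoG peak and 5 a QSC peak, where 3.36% and 2.2% of all protein-coding genes did. None of these peaks overlapped one of the same antibody in a second library, and how often that holds over all genes was not computed. Thrb, a thyroid hormone receptor, had a MyoG peak in ASC replicates 2 and 3 and in QSC replicate 2 and no MyoD peak. These 3 peaks lay at separate sites, chr14:17969225-17969779 and chr14:17977430-17978171 in intron 4 in ASCs and chr14:17472641-17473174, annotated as distal intergenic, in QSCs, with scores of 55.01, 59.1 and 61.2. Rora, a further nuclear receptor, had 1 peak each in ASC MyoD replicate 2, ASC MyoG replicate 1 and QSC MyoD replicate 2, all in intron 1 and at 3 separate sites, with scores of 75.8, 68.4 and 52.5. Tbl1xr1 had 1 MyoG peak in each ASC library, again at 3 separate sites, with scores of 51.3 to 53.5, and 1 MyoD peak in QSC replicate 3 with a score of 50.5. Nr4a1, an orphan nuclear receptor, had a MyoG peak in ASC replicate 1 with a score of 52.03. It also had a MyoD peak in ASC replicate 3 with a score of 56.9, and both were annotated as distal intergenic.

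QSC peaks at 2 other network genes were single. Nampt, the enzyme of NAD salvage, had a distal intergenic peak in QSC MyoD replicate 3 with a score of 62.0, and Pdk4, a kinase that slows the use of glucose and a common PPAR target, had one in QSC MyoG replicate 1 with a score of 53.6. Mfn1 and Mfn2, the mitofusins of mitochondrial fusion, had no listed peak in any of the 12 libraries.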
